A study of Mus musculus with 6 samples.

Results

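Immediate early genes are the first genes that a cell transcribes after a growth factor, serum or stress signal, before any new protein is made. Many encode transcription factors. FOS and JUN family proteins pair through leucine zippers to form AP-1, EGR proteins are zinc finger factors, and the messages of most of these genes are short-lived. In NIH3T3 cells, a line of mouse embryo fibroblasts, readdition of serum to starved cultures is the classical trigger. The genes described here are Fos, Fosb, Fosl1, Jun, Junb, Egr1, Egr2, Ier2, Ier3 and Atf3. They were chosen by name, with earlier results of these data known. Each symbol matched 1 row of the count table, so that 10 of 35275 genes are covered.

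RNA was sequenced from 3 libraries labelled NgBR overexpression and 3 libraries of wild-type NIH3T3 cells. Per the labels' protocols, the first came from cells stably transfected with a pIRES plasmid for HA-tagged NgBR, the Nogo-B receptor, and selected with G418. Cells of both kinds were kept in DMEM with 10% calf serum and no further treatment is named. Whether the transfected line is 1 clone or a pool, whether the wild-type cells carried an empty plasmid, and the time between the last serum change and harvest were not given in the sources used here. The labels do not say whether the replicates were separate cultures. The p-values weigh the group difference against the variation between these libraries, and that variation may be technical.

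The libraries labelled NgBR overexpression, called labelled libraries from here on, held between 7369961 and 10358381 counts, and the wild-type libraries between 29515072 and 35511769. The mean depth was 3.5-fold higher in wild type. One count was worth between 0.0955 and 0.14 CPM, counts scaled to library size, in the labelled libraries and between 0.0286 and 0.0338 CPM in wild type. Nus1, the mouse gene of NgBR, was at 184, 185 and 165 CPM in labelled libraries 1 to 3, against 212, 187 and 233 CPM in wild-type libraries 1 to 3. Nus1 was thus not higher in the labelled libraries (log2 fold change -0.24, edgeR adjusted p = 0.786). Directions below are those of the label, and reads of a transgene may not have been counted at the mouse gene. Of 10 fibroblast markers all were tested and 0 were called, and their summed level was 22900 to 33200 CPM in the labelled libraries and 21800 to 25600 CPM in wild type. Of 7 epithelial markers, Epcam, Krt18 and Cldn4 had 0 counts in every library, and the 1 tested, Krt14, was not called, on 10, 5 and 18 counts in the labelled libraries and 22, 6 and 8 in wild type. The summed epithelial list was at 0.791 to 2.67 CPM in the labelled libraries and 0.237 to 0.859 CPM in wild type. Myod1 and Myog, which define muscle, had 0 counts in every library. Summed markers of endothelium stayed at or below 2.1 CPM and those of leukocytes at or below 5.24 CPM in every library. Of 4 tested neural markers Syt1 rose, on 5, 6 and 6 counts in the labelled libraries against 0, 2 and 0 in wild type. The summed neural list was at 10.4 to 24.4 CPM in the labelled libraries and 7.75 to 9.99 CPM in wild type, and the summed muscle list, with 0 of 2 tested genes called, at 5.54 to 16.6 and 1.86 to 3.31 CPM. The part of these low marker levels in the results below was not tested. On the second principal component of all tested genes both libraries numbered 2 lay apart from the other libraries. Libraries also differed by gene length. Each gene's deviation from its mean log2 CPM had a Spearman correlation with exonic length of 0.0684, 0.347 and -0.467 in labelled libraries 1 to 3. In wild-type libraries 1 to 3 these correlations were -0.226, 0.242 and -0.299. The part of these length trends in the length-scaled levels and count ratios below was not tested. Wild-type library 2 stood apart in the genes of the ATF4 stress response, as described with Atf3 below.

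Levels were first compared between the genes after division by exonic length, which gives CPM per kilobase. Exonic length joins the exons of all annotated transcripts of a gene, and it can exceed the length of any mature message. Ier3 and Fosl1 headed the order in the labelled libraries, at 90.2 ± 30.3 and 82.8 ± 22 CPM per kilobase (SD, n = 3), and their ranges overlapped. Ier3 encodes a small protein that modulates survival and ERK signalling, and Fosl1 encodes FRA-1, a FOS family member without a strong activation domain of its own. In wild type the order was headed by Fosl1 at 55.4 ± 9.78 and Jun at 49.7 ± 4.58 CPM per kilobase (SD, n = 3), whose ranges also overlapped, with Junb next at 44.6 ± 7.26. Ier3 followed at 30.1 ± 2.25 CPM per kilobase, below the range of Junb and above that of Ier2. Jun, Junb, Egr1 and Ier2 held the middle of the order in the labelled libraries, at 55.2, 40.1, 25.2 and 20.7 CPM per kilobase.

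The lowest levels were those of Egr2, Fosb, Fos and Atf3 in the labelled libraries, at 1.85, 1.03, 0.73 and 0.66 CPM per kilobase. The ranges of Fosb and Fos overlapped there, as did those of Fos and Atf3. In wild type, Fos, Egr2 and Fosb closed the order at 1.23, 1.18 and 0.466 CPM per kilobase, and Atf3 stood above them at 9.05 ± 11.1 (SD, n = 3), a mean carried by wild-type library 2. Of the length-scaled level of the 4 FOS family genes, with Fosl2, the gene of FRA-2, counted in, Fosl1 held 57.4, 54.9 and 63.4% in labelled libraries 1 to 3, against 42.4, 48.7 and 45.8% in wild-type libraries 1 to 3. Fosl2 held 41.5, 44 and 35.1% in the labelled libraries and 55.9, 50.6 and 52.3% in wild type. Fosl1 was thus the larger of the pair in every labelled library and Fosl2 in every wild-type library, a difference that was not tested, and the strand overlap of Fosl1 described below bears on its share. The shares of Fos and Fosb were small, with Fos at 0.526 ± 0.117% and 1.05 ± 0.448% and Fosb at 0.718 ± 0.086% and 0.393 ± 0.125% in labelled and wild-type libraries (SD, n = 3 each).

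**Figure D1:**
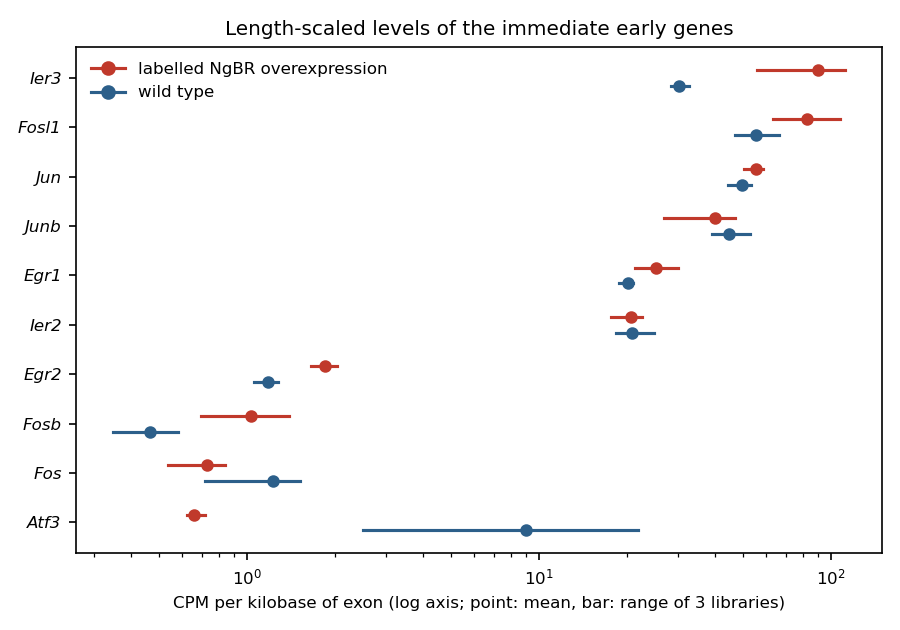
Length-scaled levels of the 10 genes on a log axis of CPM per kilobase of exon, with the mean as a point and the range of 3 libraries as a bar, labelled NgBR overexpression above wild type for each gene. Ier3 has the highest mean in the labelled libraries and lies below Fosl1, Jun and Junb in wild type, and Atf3 has the lowest mean in the labelled libraries.

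Across the 10 genes, 1 passed the test, Ier3, which rose. At an adjusted p under 0.05, the edgeR fit over 12651 genes called 3.39% of them, 2.04% higher and 1.35% lower. The 10 genes all passed the filter on low counts. Their median log2 fold change was 0.24, with 6 positive and 4 negative, beside -0.01 over all tested genes. For 5 of the 10 genes the labelled and wild-type ranges were separate, with labelled libraries above wild type for Fosb, Egr1, Egr2 and Ier3, and below it for Atf3. Over all tested genes such separation was seen for 9.21% above and 9.37% below. In bulk RNA, a different share of expressing cells and a different amount of RNA per cell cannot be told apart.

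**Figure D2:**
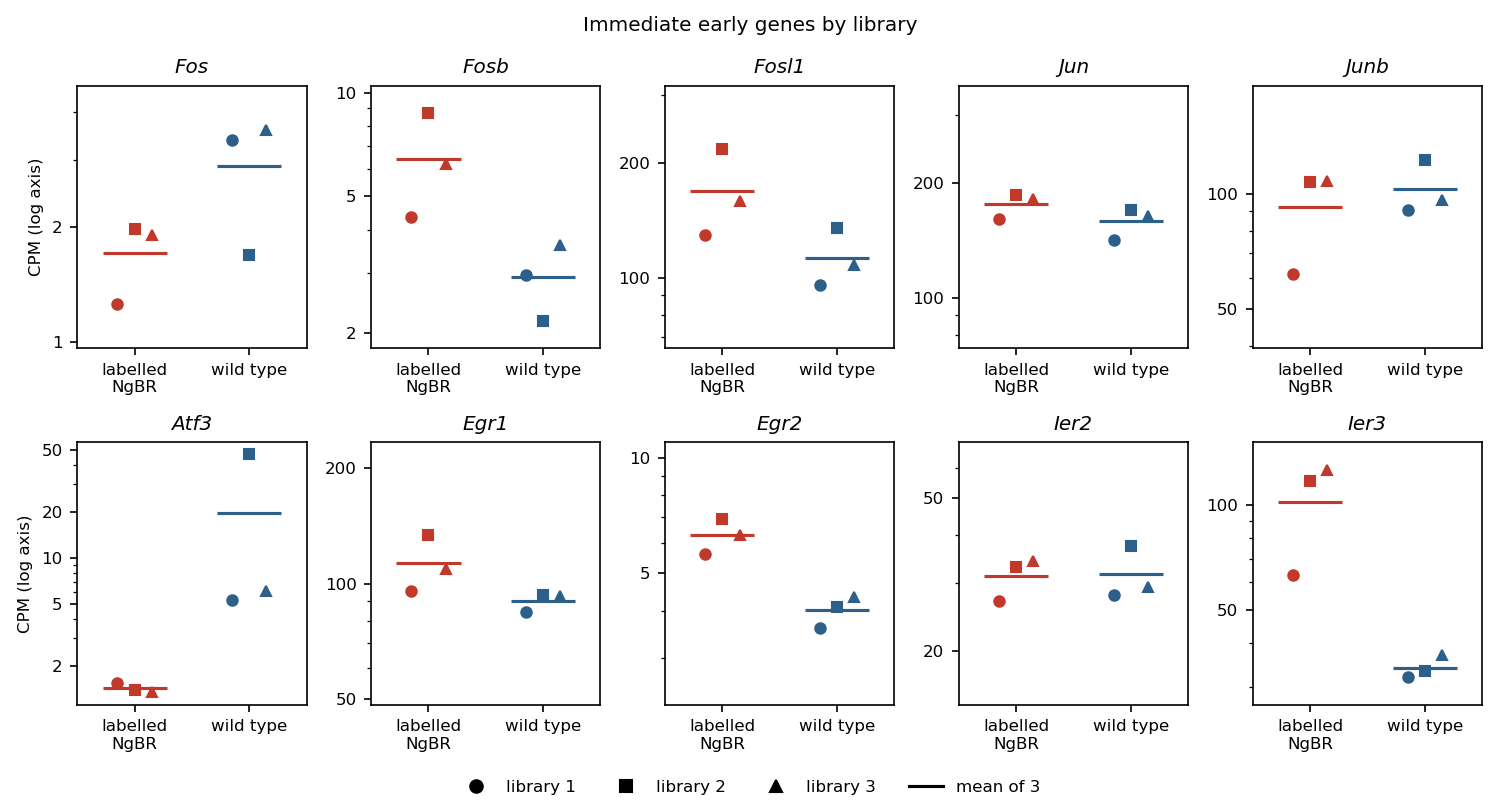
CPM of each of the 10 genes by library on log axes, one panel a gene, with labelled NgBR overexpression left of wild type, a symbol for each library number and a line at the mean of 3. The groups are apart for Ier3, Fosb, Egr1, Egr2 and Atf3, and Atf3 reaches 47 CPM in wild-type library 2.

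Ier3 (ENSMUSG00000003541) lies on mm10 chromosome 17, 35821684 to 35822923, plus strand, and its annotated exons span 1131 bases in 2 blocks with no other gene overlapping them. It was at 62.9, 117 and 126 CPM in labelled libraries 1 to 3, against 32, 33.3 and 36.9 CPM in wild-type libraries 1 to 3. All labelled libraries lay above all wild-type libraries, and labelled library 1 was the lowest of the labelled. The means were 102 ± 34.2 CPM in the labelled libraries and 34.1 ± 2.55 CPM in wild type (SD, n = 3 each), a 3.0-fold rise (log2 fold change 1.58, SE 0.28, 95% interval 0.94 to 2.22, edgeR adjusted p = 0.0163). This call did not hold when labelled library 2 (edgeR adjusted p = 0.052) or labelled library 3 (0.065) was left out, or wild-type library 1 (0.0686) or 2 (0.06). The log2 fold change stayed between 1.40 and 1.83 over all 19 alternative settings.

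Ier2 (ENSMUSG00000053560; mm10 chromosome 8, 84661331 to 84662852, minus strand), a short-lived nuclear protein gene with 1 exon, is the other IER gene described. It was at 26.9, 33 and 34.3 CPM in labelled libraries 1 to 3, against 27.9, 37.6 and 29.3 CPM in wild-type libraries 1 to 3. The groups overlapped throughout (log2 fold change -0.01, 95% interval -0.51 to 0.50, edgeR adjusted p = 0.997), and the sign of so small a value turned under 7 of 19 settings. The ratio of Ier3 to Ier2 counts within a library, which needs no scaling between libraries, was 2.33, 3.54 and 3.68 in labelled libraries 1 to 3. It was 1.15, 0.886 and 1.26 in wild-type libraries 1 to 3. The ratios did not overlap, and the two-sided exact permutation test gave p = 0.1, the smallest value that 3 against 3 libraries allow (adjusted p = 0.12 over 6 within-family ratios).

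Atf3 encodes a stress-induced bZIP factor that can pair with JUN proteins and that often represses its targets. The gene (ENSMUSG00000026628; mm10 chromosome 1, 191170296 to 191218039, minus strand) was at 1.54, 1.39 and 1.34 CPM in labelled libraries 1 to 3, on 11, 14 and 14 counts. Wild-type libraries 1 to 3 held 5.36, 47 and 6.11 CPM of it, on 187, 1389 and 203 counts. All labelled libraries lay below all wild-type libraries, and wild-type library 2 was 8.2-fold above the mean of the other two wild-type libraries. Exact Poisson 95% intervals, which cover counting error only, ended at 2.76 CPM in labelled library 1 and began at 4.62 CPM in wild-type library 1. With all 6 libraries the log2 fold change was -3.78 (SE 0.88, 95% interval -5.77 to -1.78), and the adjusted p of 0.0563 by edgeR missed the threshold. Without wild-type library 2 the value was -2.01 and Atf3 was called lower (edgeR adjusted p = 0.0185), while Ier3 was not (0.06). Without wild-type libraries 1 or 3 Atf3 was called as well, at -4.22 and -4.20 (edgeR adjusted p = 0.0154 and 0.013). Atf3 was not called when labelled library 1, 2 or 3 was left out (edgeR adjusted p = 0.237, 0.197 and 0.202). With limma-voom its log2 fold change was -2.95 and it was not called (limma-voom adjusted p = 0.354).

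Wild-type library 2 was also high in genes that the factor ATF4 induces under amino acid or endoplasmic reticulum stress. Trib3, a pseudokinase induced by this response, was at 21.3, 20.3 and 26.8 CPM in labelled libraries 1 to 3, against 8.16, 159 and 7.07 CPM in wild-type libraries 1 to 3. Ddit3, which encodes the stress factor CHOP, was at 22.5, 21.5 and 56.9 CPM in the labelled libraries, against 18.9, 136 and 20.2 CPM. Slc7a11, the cystine transporter gene, was at 5.05, 5.44 and 2.2 CPM in the labelled libraries, against 5.18, 82.4 and 4.36 CPM. Wild-type library 2 was the highest of the 6 libraries in each of these genes, as it was for Atf3, and in 13 of the 14 genes of the stress list, all but Ddit4. Over the list of 14 stress genes 0 were called, 13 had a negative fold change and the median log2 fold change was -0.80. Without wild-type library 2, 5 of the 14 were negative, the median was 0.19 and Trib3 was called higher (log2 fold change 1.58, edgeR adjusted p = 0.0187). Atf3 stayed below wild-type libraries 1 and 3 in every labelled library. What set wild-type library 2 apart was not tested.

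**Figure D3:**
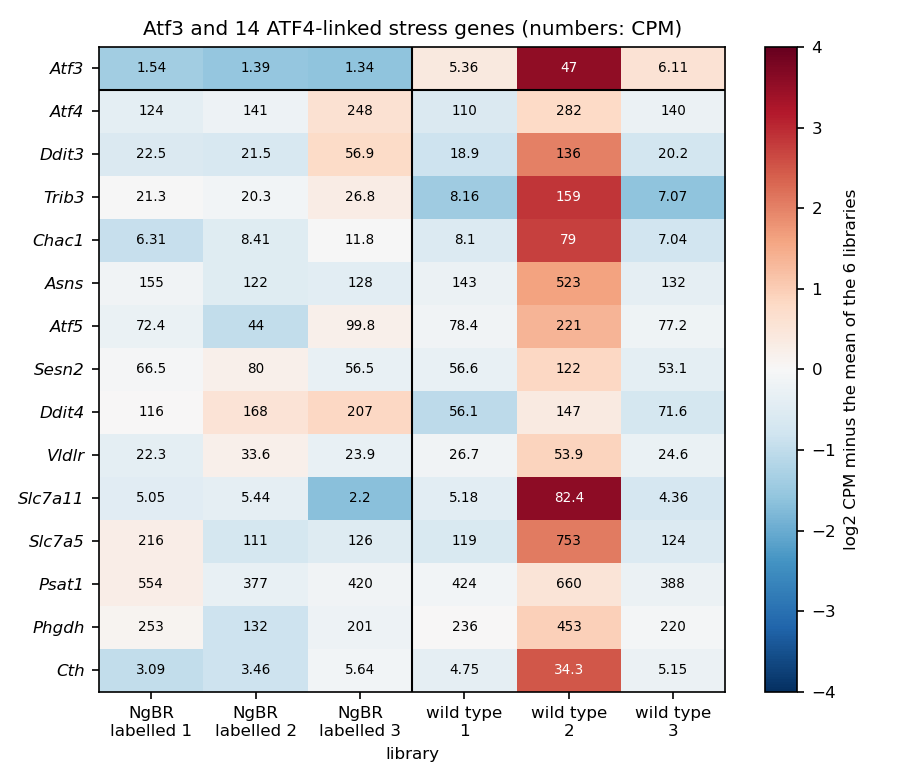
Atf3 (top) and 14 ATF4-linked stress genes in the 6 libraries, with color for log2 CPM minus the mean of the 6 libraries and the CPM printed in each cell, labelled NgBR overexpression left of wild type. Wild-type library 2 is the highest library for Atf3 and for 13 of the 14 stress genes, and Atf3 is lower in all 3 labelled libraries than in wild-type libraries 1 and 3.

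Promoter windows were read from RefSeq (build GRCm38.p6, the assembly of mm10) for the genes that held one. The 4 shown are those of Ier3 and Atf3, the genes farthest apart between the groups, and of Fos and Fosb. The fold changes of Fos and Fosb had opposite signs, but neither was called and the groups overlapped for Fos. Each runs from 250 bases before to 50 bases after the annotated start in the sense of the gene, 300 bases in all. Capitals mark matches, on either strand, to the kappaB site of NF-kB, the C/EBP-ATF element TGATGNAA that ATF4 can bind, the EGR site GCGNGGGCG or the TATA box TATAAA.
Ier3, chr17:35821463-35821762, plus strand: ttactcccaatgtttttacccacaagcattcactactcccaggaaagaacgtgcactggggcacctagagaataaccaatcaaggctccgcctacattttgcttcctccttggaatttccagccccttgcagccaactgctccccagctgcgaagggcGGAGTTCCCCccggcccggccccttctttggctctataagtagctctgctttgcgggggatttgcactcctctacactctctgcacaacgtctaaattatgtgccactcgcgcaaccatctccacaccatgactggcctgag
Atf3, chr1:191183284-191183583, minus strand: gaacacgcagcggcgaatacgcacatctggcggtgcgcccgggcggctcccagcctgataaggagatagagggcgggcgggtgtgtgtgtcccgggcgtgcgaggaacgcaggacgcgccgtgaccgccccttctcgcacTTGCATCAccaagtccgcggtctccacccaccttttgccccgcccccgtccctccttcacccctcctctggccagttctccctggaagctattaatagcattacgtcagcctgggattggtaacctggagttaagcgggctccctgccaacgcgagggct
Fos, chr12:85473640-85473939, plus strand: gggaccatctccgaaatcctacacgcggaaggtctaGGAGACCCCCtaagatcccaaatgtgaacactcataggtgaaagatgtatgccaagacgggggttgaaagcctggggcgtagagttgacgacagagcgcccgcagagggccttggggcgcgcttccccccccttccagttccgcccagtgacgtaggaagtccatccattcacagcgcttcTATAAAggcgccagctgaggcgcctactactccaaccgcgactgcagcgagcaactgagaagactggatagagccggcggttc
Fosb, chr7:19309996-19310295, minus strand: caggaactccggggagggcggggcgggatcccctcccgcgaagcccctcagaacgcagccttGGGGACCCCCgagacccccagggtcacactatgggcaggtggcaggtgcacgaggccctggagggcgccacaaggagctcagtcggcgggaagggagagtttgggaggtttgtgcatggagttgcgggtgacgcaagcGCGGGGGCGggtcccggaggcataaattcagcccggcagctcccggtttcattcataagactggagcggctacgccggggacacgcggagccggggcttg

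The window of Ier3 held 1 kappaB match, which began 92 bases before the start. That of Atf3 held 1 C/EBP-ATF match, 110 bases before the start, and this element was found in 3.97% of 32851 windows of the same length. The Atf3 window belongs to a RefSeq start inside the gene span given above, which extends farther upstream. The table held 11 windows for 7 of the 10 genes, some with several starts, and Fosl1, Egr1 and Ier2 were not among them. A kappaB match was found in 4 of the 11 windows (1 each of Fos, Fosb, Egr2 and Ier3) and in 8.46% of all windows, and the 2 matches of Egr2 overlapped each other. An EGR match was found in 1 of the 11, that of Fosb, 50 bases before its start, and in 5.55% of all windows. The CArG box of serum response factor matched in 4 windows of Egr2 and in 1.63% of all windows. Of these 4 windows, 3 overlapped one another and held the same match. The CRE TGACGTCA and the TRE TGACTCA matched in 0 of the 11 and in 1.79% and 5.2% of all windows. The TATA box matched in 2 of the 11, of Fos and Junb, and in 13.6% of all windows. The match of Fos began 33 bases before the start and that of Junb at the start itself. A match describes letters in these windows and is no evidence that a factor binds there.

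Within the FOS family, Fosb and Fosl1 were above wild type on average and Fos below it, and 0 of the 3 were called. Fosb (ENSMUSG00000003545; mm10 chromosome 7, 19302696 to 19310051, minus strand), whose protein is a strong activator in AP-1, was at 4.35, 8.71 and 6.21 CPM in labelled libraries 1 to 3. Wild-type libraries 1 to 3 held 2.95, 2.17 and 3.61 CPM. The groups did not overlap, with a log2 fold change of 1.15 ± 0.35 SE, a 95% interval from 0.35 to 1.94 and an edgeR adjusted p of 0.166. Fos (ENSMUSG00000021250; mm10 chromosome 12, 85473890 to 85477273, plus strand), the founding member, was at 1.26, 1.98 and 1.91 CPM in the labelled libraries, on 9, 20 and 20 counts. Wild-type libraries 1 to 3 held 3.38, 1.69 and 3.58 CPM, so that wild-type library 2 lay inside the range of the labelled libraries. Its log2 fold change was -0.73 (95% interval -1.66 to 0.20, edgeR adjusted p = 0.593).

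The ratio of Fosb to Fos counts was 3.44, 4.4 and 3.25 in labelled libraries 1 to 3, against 0.873, 1.28 and 1.01 in wild-type libraries 1 to 3. Every labelled library held more Fosb than Fos reads by more than 3 to 1, whereas both genes had similar counts in wild type. These ratios are not scaled by length, and Fosb has 6243 exonic bases against 2352 of Fos, each joined over all annotated transcripts. Per kilobase, Fosb and Fos were at 1.03 and 0.73 CPM in the labelled libraries and at 0.466 and 1.23 CPM in wild type. The mean log2 ratio was 1.82 higher in the labelled libraries, and the exact two-sided permutation p was again 0.1, its smallest possible value (adjusted p = 0.12). Both genes are low, and their counts limit the precision: the exact Poisson 95% interval of Fos in labelled library 1 ran from 4.12 to 17.1 counts.

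Fosl1 (ENSMUSG00000024912; mm10 chromosome 19, 5447547 to 5455946, plus strand) was at 129, 217 and 159 CPM in labelled libraries 1 to 3, against 95.6, 135 and 108 CPM in wild-type libraries 1 to 3. Labelled library 1 lay below wild-type library 2, so the groups overlapped (log2 fold change 0.58, 95% interval -0.01 to 1.17, edgeR adjusted p = 0.446). Of its 2033 annotated exonic bases, 1163 overlap exons of Ccdc85b on the opposite strand, and whether reads were counted by strand was not given in the sources used here. Ccdc85b was at 128 ± 26.2 CPM in the labelled libraries and 85.1 ± 28.8 CPM in wild type (SD, n = 3 each) and was not called (log2 fold change 0.59, edgeR adjusted p = 0.523). Reads of the shared bases cannot be told apart between these genes if strand was not used, so the level of Fosl1 is uncertain.

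Jun and Junb, the AP-1 partners of the FOS proteins, had ranges that overlapped those of wild type. Jun (ENSMUSG00000052684; mm10 chromosome 4, 95049034 to 95052222, minus strand) was at 161, 186 and 181 CPM in labelled libraries 1 to 3, against 142, 170 and 164 CPM in wild-type libraries 1 to 3. The lowest of the 6 was wild-type library 1, and the interval of its log2 fold change, -0.32 to 0.62 around 0.15, was among the narrowest of the 10 (edgeR adjusted p = 0.891). Junb (ENSMUSG00000052837; mm10 chromosome 8, 84974484 to 84978718, minus strand), which can act as a weaker activator than JUN, was at 61.7, 107 and 108 CPM in the labelled libraries, against 90.3, 122 and 96 CPM. Labelled library 1 was the lowest of all 6 libraries, and without it the log2 fold change of -0.15 (95% interval -0.76 to 0.45, edgeR adjusted p = 0.922) turned to 0.06. The ratio of Junb to Jun counts was 0.384, 0.572 and 0.599 in labelled libraries 1 to 3 and 0.636, 0.717 and 0.586 in wild-type libraries 1 to 3 (exact permutation p = 0.2, adjusted 0.2).

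Junos, a noncoding RNA gene on the strand opposite Jun, shares 232 exonic bases with it and was called higher in the labelled libraries. It was at 29.3, 43.8 and 24.7 CPM in labelled libraries 1 to 3, against 11, 6.87 and 12.1 CPM in wild-type libraries 1 to 3. The groups did not overlap (log2 fold change 1.71 ± 0.31 SE, with 0.0179 as the edgeR adjusted p), and the call was lost without labelled library 1 (0.076) or wild-type library 1 (0.0501). Junos was looked up for its overlap with Jun. Junb shares 173 exonic bases with Prdx2 on the opposite strand, which was at 136 ± 74.9 CPM in the labelled libraries and 159 ± 65.4 CPM in wild type (SD, n = 3 each) and was not called.

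Egr1 and Egr2 were above wild type in all 3 labelled libraries, by amounts that did not pass the test. Egr1 (ENSMUSG00000038418; mm10 chromosome 18, 34859823 to 34864984, plus strand), the zinc finger factor that growth factors induce through ERK, was at 95.6, 134 and 109 CPM in labelled libraries 1 to 3. Wild-type libraries 1 to 3 held 84.3, 93.6 and 92.8 CPM, and the gap between labelled library 1 and wild-type library 2 was small. The log2 fold change was 0.33 (95% interval -0.16 to 0.81, edgeR adjusted p = 0.673). Egr2 (ENSMUSG00000037868; mm10 chromosome 10, 67535475 to 67542188, plus strand), best known for its part in Schwann cell myelination, was at 5.61, 6.93 and 6.31 CPM in labelled libraries 1 to 3. Wild-type libraries 1 to 3 held 3.61, 4.09 and 4.33 CPM, apart from the labelled libraries, with a log2 fold change of 0.65 (95% interval 0.05 to 1.25, edgeR adjusted p = 0.372). The ratio of Egr2 to Egr1 counts was 0.0587, 0.0516 and 0.0577 in the labelled libraries and 0.0428, 0.0437 and 0.0467 in wild-type libraries 1 to 3 (exact permutation p = 0.1, the smallest possible, adjusted 0.12).

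**Figure D4:**
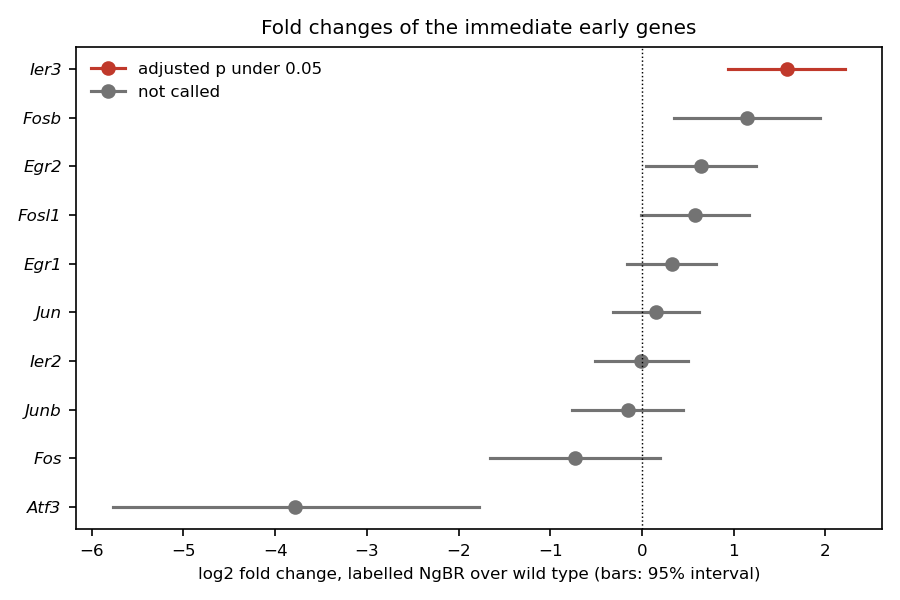
Log2 fold changes of the 10 genes, labelled NgBR overexpression over wild type, with 95% intervals from the edgeR fit as bars. Ier3 is the 1 gene called, at 1.58, and Atf3 has the largest distance from 0 and the widest interval, from -5.77 to -1.78.

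The other genes of the class were described from a list of 41 with a row in the table, of which 40 were tested. Klf10 and Dusp1 rose and 0 fell, beside 2.04% called higher and 1.35% called lower over all tested genes. Klf10, a zinc finger factor that TGF-beta induces early, was at 69.7, 85.7 and 75.1 CPM in labelled libraries 1 to 3, against 15.9, 32.8 and 19 CPM in wild-type libraries 1 to 3 (log2 fold change 1.77 ± 0.30 SE, with 0.0117 as the edgeR adjusted p). Dusp1, the phosphatase that switches off MAP kinases, was at 86.7, 151 and 118 CPM in the labelled libraries, against 43.8, 45.3 and 51 CPM (log2 fold change 1.35 ± 0.25 SE, with 0.0184 as the edgeR adjusted p). The groups were apart in both genes. The call of Klf10 was lost without labelled library 1 (0.0585), and that of Dusp1 without labelled library 3 (0.061) or any 1 wild-type library (0.0972, 0.0601 and 0.0565).

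The list's median log2 fold change was -0.03, with 20 positive and 20 negative, beside -0.01 over all tested genes, and without wild-type library 2 it was 0.13, with 3 genes called higher. The ranges of the groups were apart for 6 of the 40 genes above and 2 below wild type. Over all tested genes 9.21% were apart above and 9.37% below. The genes Errfi1, Hbegf, Homer1, Btg2 and Nr4a3 were not called in the main fit and are named after their values were seen. Over the 19 alternative settings Homer1 was called in 6, Hbegf in 5, and Errfi1, Btg2 and Nr4a3 in 3 each. Errfi1, an inhibitor of the EGF receptor, had 124, 375 and 199 CPM in labelled libraries 1 to 3 and 86.2, 73.5 and 98.2 CPM in wild-type libraries 1 to 3 (edgeR adjusted p = 0.0918). Hbegf, a ligand of that receptor, had 26.5, 40 and 33.9 CPM in the labelled libraries and 7.56, 24.4 and 8.16 CPM in wild type. On the log2 scale its difference of 1.33 (edgeR adjusted p = 0.223) was 2.09 without wild-type library 2, and it was then called (0.00881). The scaffold gene Homer1 was 1.14 above wild type on the log2 scale (edgeR adjusted p = 0.14). Below wild type in all 3 labelled libraries were Btg2, an antiproliferative gene, and the nuclear receptor gene Nr4a3, with log2 fold changes of -0.82 and -1.33 (edgeR adjusted p = 0.101 and 0.286). Without labelled library 2, Nr4a3 was at -2.14 and called (0.0333).

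**Figure D5:**
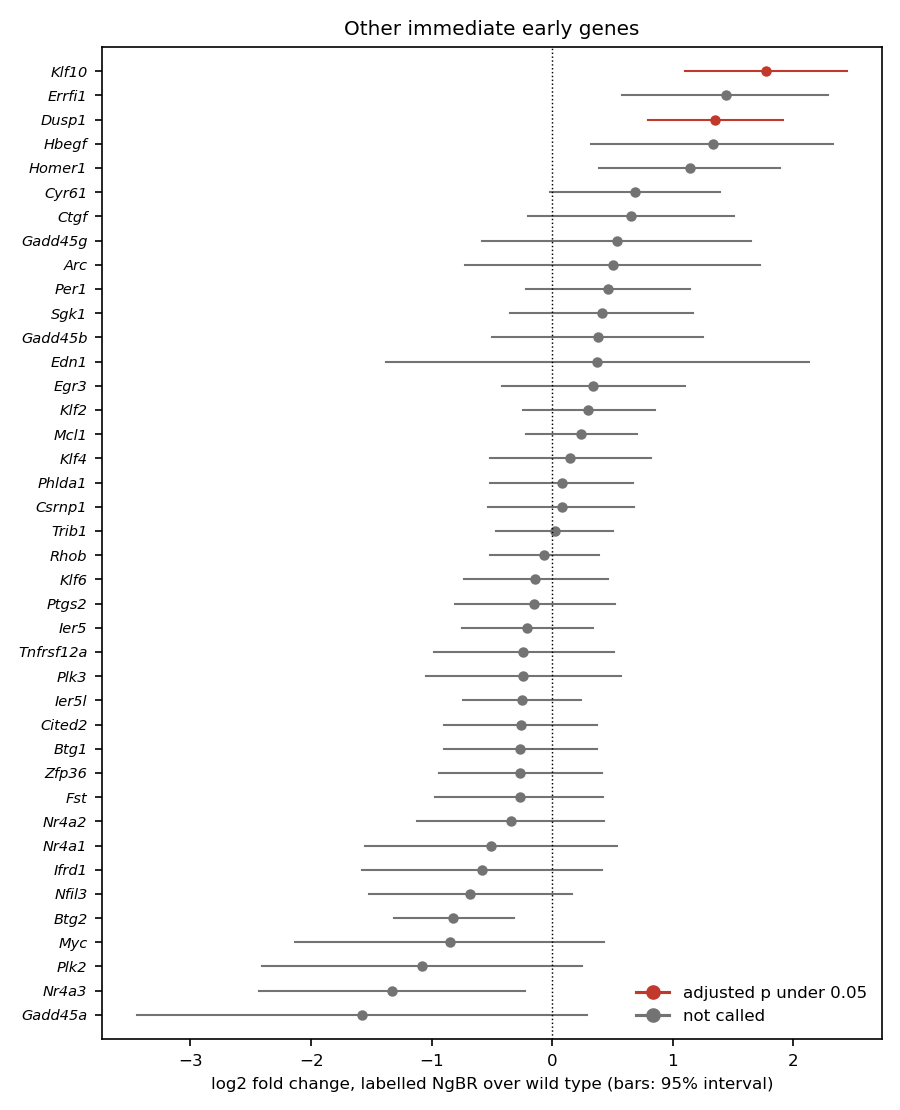
Log2 fold changes of the 40 tested genes of the wider immediate early list, labelled NgBR overexpression over wild type, with 95% intervals as bars. Klf10 and Dusp1 are the 2 genes called, and 20 genes lie on each side of 0.

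Of the other AP-1 and related bZIP factors, 8 of 11 were tested and 0 called, with a median log2 fold change of -0.14, 3 positive and 5 negative. Without wild-type library 2 the median was 0.18, with 5 positive and 3 negative. Fosl2 was at 564 ± 228 CPM in the labelled libraries and 618 ± 42.2 CPM in wild type, and Atf7 at 172 ± 83.3 and 115 ± 27.8 CPM (SD, n = 3 each). Maff, a small MAF factor named after its values were seen, was above wild type in all 3 labelled libraries, at 44.1 ± 14.9 and 22 ± 3.72 CPM (log2 fold change 1.0, edgeR adjusted p = 0.148). It was called in 2 of the 19 alternative settings.

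Of 19 tested genes of the relay from Ras to the MAP kinases 0 were called (median log2 fold change -0.01, and 0.15 without wild-type library 2). Rps6ka4, which encodes the kinase MSK2, was at 197 ± 32.4 CPM in the labelled libraries and 143 ± 48.4 CPM in wild type (SD, n = 3 each). Serum response factor and its partners had 0 of 7 called (median 0.30), with Srf at 110 ± 21.5 and 83.8 ± 9.68 CPM and Elk3 at 165 ± 9.69 and 134 ± 44.1 CPM. The CREB family had 0 of 6 called (median -0.02, and 0.03 without wild-type library 2), with Creb1 at 130 ± 30 and 128 ± 40 CPM and Atf1 at 67.9 ± 17 and 62.1 ± 5.43 CPM. The EGR co-repressors Nab1 and Nab2 were at 113 ± 23.2 and 52.9 ± 14.2 CPM in the labelled libraries and at 144 ± 4.83 and 43 ± 13.6 CPM in wild type, and 0 of these 2 was called. Genes of AU-rich element decay, which clears the messages of many immediate early genes, had 0 of 11 called (median 0.15). Zfp36l2, the most abundant of them, was at 659 ± 160 CPM in the labelled libraries and 448 ± 27.6 CPM in wild type, and Cnot1 at 423 ± 115 and 332 ± 57.1 CPM (SD, n = 3 each).

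Among 11 tested EGR1 target genes the median log2 fold change was 0.23, and among 16 tested AP-1 target genes it was -0.19, beside -0.01 over all tested genes. Of the EGR1 target genes 2 were called higher, of the AP-1 target genes 1, and 0 were called lower on either list. A called gene was on both lists. Over all tested genes 2.04% were called higher and 1.35% lower. Without wild-type library 2 the medians were 0.27 and, over 15 tested AP-1 target genes, 0.05, with 0 genes called on either list. Fgf2, a fibroblast growth factor gene of the EGR1 list, rose in the labelled libraries. It was at 7.58, 7.22 and 4.49 CPM in labelled libraries 1 to 3, against 2.21, 1.29 and 2.38 CPM in wild-type libraries 1 to 3 (log2 fold change 1.71 ± 0.36 SE, with 0.0366 as the edgeR adjusted p). The groups did not overlap. The call of Fgf2 was lost without labelled libraries 1 or 2 or any 1 wild-type library (edgeR adjusted p from 0.0788 to 0.151). Fgf2 was also not called after thinning every library to the shallowest (0.0558) or without both libraries numbered 2 (0.0715).

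The genes most like the class across the 6 libraries were sought among the other 12641 tested genes by Pearson's correlation of log2 CPM, as a description over libraries that fall into 2 groups. Rdh5, Senp8 and Trim23 followed the mean profile of the 10 genes most closely (r = 0.984, 0.977 and 0.975 over 6 libraries), and Aire and Whamm followed Ier3 (r = 0.994 and 0.990). The 10 genes did not share a profile. Their pairwise r ran from -0.865 for Fosb and Atf3 to 0.969 for Fosl1 and Egr1, so likeness to the mean is not likeness to each gene.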

How the data were processed

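The authors deposited a table of unnormalized counts for 35275 genes in 6 libraries. Genome build mm10 is listed in the submitters' processing notes beside featureCounts 1.5.0-p3, HISAT2 2.0.5 and DESeq2. Which annotation, strand setting and filters applied was not given in the sources used here. GENCODE M21, on that assembly, gave positions, exonic lengths and GC contents and matched 97.8% of identifiers.

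Counts were tested with edgeR 4.0.16 in R 4.3.3 (quasi-likelihood F test, TMM factors, filterByExpr with the group, no covariate), and p-values were adjusted over all 12651 tested genes. CPM used TMM-scaled library sizes. Poisson intervals cover counting error only, and reads that carry no molecular identifier are not independent. The genes, the lists and the naming rule were chosen with earlier results of these data known. The rule took the 10 genes, Nus1, up to 4 called genes of each list and otherwise its 2 most abundant, and the genes most alike in profile. Tnnt2, Des, Krt14, Cd68, Csf1r, Fn1, Col1a2, Psat1, Phgdh, Hsp90aa1 and Hspa8, which it also takes, were not called. Results of some listed genes are not reported here.

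Alternatives were DESeq2 1.42.0, limma-voom (limma 3.58.1), RLE, upper-quartile and no composition factors, a robust fit, 2 other filters on low counts, a replicate block, each library left out, both libraries numbered 2 left out, thinning to the shallowest library, and offsets for length and GC content (mgcv 1.9.3) with and without the block. The fit was tested on simulated data. It recovered 19 of 100 simulated 2-fold changes and 91 of 98 simulated 4-fold changes, with 0 false calls. A gene that was not called may therefore still differ 2-fold.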

Additional observations from a re-analysis of the deposited data

How the results depend on the processing

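Ier3 kept its direction under all 19 alternatives, 14 of which kept its call, and Atf3 kept its direction under all 19 and was called lower under 7. The number of the 10 genes called was 1, and it was 2 without a filter on low counts, 2 with the replicate number as a block and 2 with that block and offsets for length and GC content, Ier3 and Atf3 each time. It ranged from 0 to 2 over the libraries left out in turn. Atf3 was at -3.83, -3.15 and -3.10 under these 3 settings (edgeR adjusted p = 4.68e-05, 0.00234 and 0.0196), and DESeq2 gave it no adjusted p. Without both libraries numbered 2, Atf3 was at -2.0 and called (0.0146), and Ier3 at 1.46 and not called (0.059). Over all genes 429 were called, 715 by DESeq2, 688 without a filter, 719 with the block, and from 225 to 374 with a library left out. The sign turned for Ier2, Junb and Trib3. Ier2, at -0.01, was at 0.01 with limma-voom, 0.00 with RLE factors, 0.02 with upper-quartile factors, 0.01 with the minimum of 1 CPM in 3 libraries, 0.10 without both libraries numbered 2, and between -0.08 and 0.14 with 1 library left out. Junb was at -0.29 to 0.06 with 1 library left out. Trib3, at -1.35 with all libraries, was at 0.13 with limma-voom, 0.31 with the block, 0.34 with the block and offsets, 1.66 without both libraries numbered 2, and between -1.87 and 1.58 with 1 library left out, and it was called higher without wild-type library 2 (edgeR adjusted p = 0.0187) and without both libraries numbered 2 (0.00797). The cause of these changes was not tested.

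The replicate numbers are shared by the groups, but the labels do not tie them to a batch. The deviations of same-numbered libraries from their group means were correlated at 0.0147, 0.341 and 0.434 across genes, and labelled library 1 did not correlate best with its own number, so the block is no paired analysis. The lower depth of the labelled libraries limits the low genes: Fos rested there on 9 to 20 counts and Atf3 on 11 to 14.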

Other observations

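Wild-type library 2 was also high in Gadd45a, Plk2 and Myc of the wider immediate early list, 3 genes named after their values were seen. Gadd45a, induced by DNA damage and stress, was at 5.19, 10.2 and 9.17 CPM in labelled libraries 1 to 3, against 6.3, 61.2 and 6.32 CPM in wild-type libraries 1 to 3. Plk2, a polo-like kinase gene, was at 222, 336 and 226 CPM in the labelled libraries, against 233, 1170 and 252 CPM, and Myc at 61.5, 69.5 and 93.4 CPM, against 52.7, 284 and 68.5 CPM. Wild-type library 2 was the highest of the 6 in each. The related Gadd45b and Gadd45g were highest in labelled library 3, at 57.6 and 15.9 CPM, against 46.1 and 7.14 CPM in wild-type library 2. Fos and Fosb were at 0.486 and 0.66 times the mean of wild-type libraries 1 and 3 in that library, and Ier3 at 0.964 times that mean. Heat shock genes had 0 of 11 tested members called and a median log2 fold change of -0.06. Hspa8, the constitutive chaperone gene, was at 648 CPM in wild-type library 2, below the other 5 libraries at 944 to 1490 CPM.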
